A study of Mus musculus with 12 samples.

Results

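Type I interferon-stimulated genes are described here across mouse embryonic fibroblasts (MEF) that were wild type (WT MEF) or carried a knock-out of the heat shock transcription factor gene Hsf1 (HSF1 KO MEF), both untreated and after 48 h in 20 mM LiCl. The 41 genes of the list were taken by name, and this list and the others were chosen with earlier results of these data known. Counts over a list are therefore descriptions. In the deposited transcript table, 39 of the 41 were found, among 12988 genes in all, and 37 of them lay high enough to be tested. Mx1 and Mx2 were not among the transcripts of the table and were not analysed here, and Oas2 and Oas3 were in the table but under the minimum of a mean of 0.5 FPKM. FPKM is the amount of a transcript scaled to its length and to the size of the library, and the values of the 69 transcripts of the members were summed per gene. The 12 libraries fall into 4 groups of 3 (WT MEF, WT MEF LiCl, HSF1 KO MEF and HSF1 KO MEF LiCl), numbered 1 and 2 by their labels. The remaining library of each group carries no number and is called replicate 3 here. Untreated cells are labelled by genotype alone, no vehicle is named, and no source says whether the HSF1 KO MEF are 1 clone. A figure legend of the study writes them as heterozygous where the labels give a knock-out. Whether the 3 libraries within a group were grown as separate cultures is not given either, so the p-values measure the spread between libraries, which may be technical.

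Type I interferons are secreted when a cell senses foreign or misplaced nucleic acid. They bind a receptor made of Ifnar1 and Ifnar2, whose kinases Jak1 and Tyk2 phosphorylate STAT proteins, among them Stat2. Stat2 acts with Irf9, and the complex they enter binds a short promoter element and switches on a large set of antiviral genes. Fibroblasts are a classical source of interferon beta, and cultured fibroblasts keep a low tonic level of the response. LiCl inhibits the kinase GSK3 and was used in the study to activate β-catenin signaling.

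The promoter element can be read directly in several members. RefSeq promoters of GRCm38.p6, each with 250 bases before and 50 bases after the gene start, were available for 30 of the 41 members. The core of the interferon-stimulated response element was searched as GAAA, a pair of any bases and GAAA again, on both strands and counting overlapping matches, and 16 of these 30 members held it, against 3.44% of all 32851 promoters. The following stretches are shown because they carry matches before the start of members whose values are given in detail, and the capitals mark the matches. Each stretch is written on the strand of its gene, where the matches of Ifit1, Ifit3, Ifit3b and Rsad2 read as the reverse complement (TTTC, a pair of any bases, TTTC), and in Isg15, Bst2 and Oas1a neighbouring matches overlap.
Ifit1, chr19:34640773-34640825, plus strand: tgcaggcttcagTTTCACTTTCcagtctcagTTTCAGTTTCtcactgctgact
Ifit3, chr19:34583361-34583428, plus strand: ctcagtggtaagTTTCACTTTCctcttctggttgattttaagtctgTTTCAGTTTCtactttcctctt
Ifit3b, chr19:34607757-34607824, plus strand: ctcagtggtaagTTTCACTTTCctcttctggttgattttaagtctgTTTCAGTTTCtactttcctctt
Isg15, chr4:156200863-156200908, minus strand: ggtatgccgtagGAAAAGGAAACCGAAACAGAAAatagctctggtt
Rsad2, chr12:26456551-26456584, minus strand: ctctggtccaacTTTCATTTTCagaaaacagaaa
Bst2, chr8:71537575-71537614, minus strand: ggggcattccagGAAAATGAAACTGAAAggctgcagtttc
Oas1a, chr5:120907526-120907557, minus strand: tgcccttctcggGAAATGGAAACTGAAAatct

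The Ifit3 and Ifit3b stretches were identical over all 68 bases. Isg15 held 3 overlapping matches, the only member with 3. Across all promoter entries of the 16 members there were 26 matches, which began as far as 222 bases before the start (Stat2), and in 11 members every match ended before the start. A match describes the letters and is not a measured binding site. The longer form, with CT after the core, was found in 9 of the 30 members and in 0.271% of all promoters, TTCNNNGAA, the gamma-activated site, in 7 members and 8.30% of promoters, and GAANNTTC, the heat shock element as the study wrote it, in 5 members (Bst2, Ifitm3, Dtx3l, Herc6 and Trim25) and 7.86% of promoters.

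**Figure D1:**
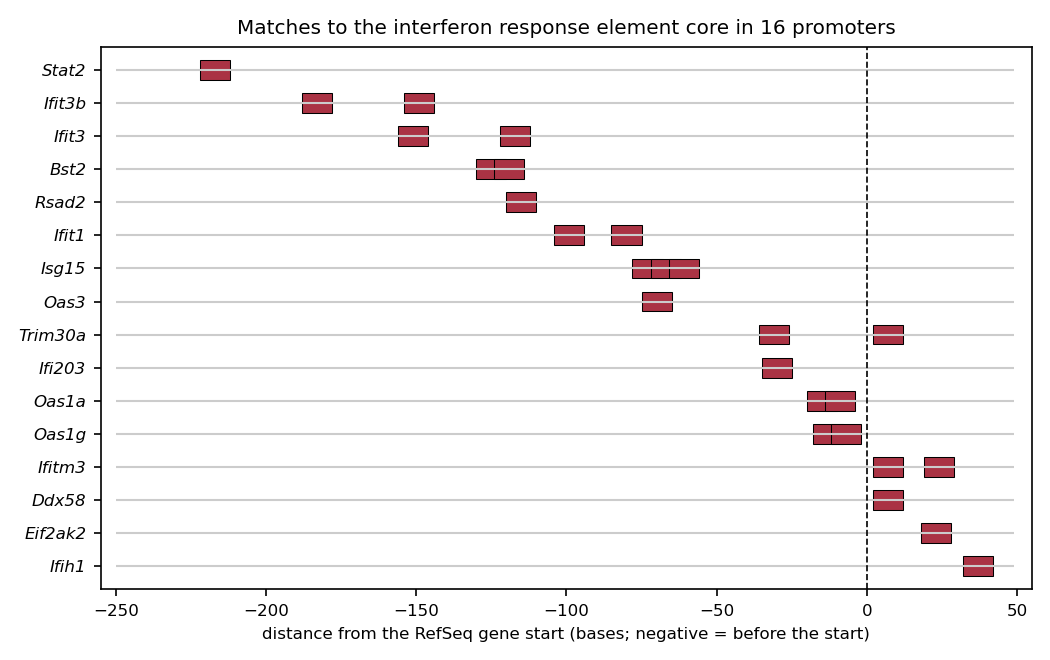
Matches to the interferon response element core (boxes) in the 16 members that held one, by distance in bases from the RefSeq gene start (dashed line at 0). Grey lines span the 300 bases searched. The matches of Stat2 and Ifit3b lie farthest before the start, and those of Ifitm3, Ddx58, Eif2ak2 and Ifih1 lie after it.

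Libraries of 1 group correlated with each other at 0.976 to 0.983 (Pearson r of log2(FPKM + 1) over genes, a description) and libraries of different groups at 0.823 to 0.933, and summed FPKM ranged from 344208 to 370025. Depth in reads is unknown, because FPKM holds no counts. Hsf1 stood at 11.1, 7.96 and 8.17 FPKM in untreated WT MEF and at 0.939, 3.89 and 2.07 FPKM in untreated HSF1 KO MEF (log2 -1.70, adjusted p = 0.00142, limma), so its RNA was lower but still listed in the knock-out libraries. All 10 fibroblast markers were in the table and of 5 endothelial markers none was. The 15 macrophage markers differed sharply between the groups. Their summed level was 119.8 to 126.3 FPKM in WT MEF, 41.2 to 45.1 in WT MEF LiCl, 1442 to 1658 in HSF1 KO MEF, and in the latter with LiCl 105.1 to 120.4. Lyz2 alone averaged 92.6, 9.50, 1173 and 85.9 FPKM in that order. Ptprc (CD45) and Aif1, which define leukocytes and macrophages, were listed at 0 in all 9 libraries outside untreated HSF1 KO MEF, where Ptprc stood at 3.57, 3.69 and 3.94 FPKM. In the same groups the fibroblast genes Dcn and Lum, for secreted matrix proteoglycans, were lower in untreated HSF1 KO MEF, at 43.5 against 933 FPKM and at 4.81 against 257 FPKM in untreated WT MEF, and of the 10 fibroblast markers 6 were called lower and 1 higher. In bulk RNA, fewer cells of a type and less RNA per cell cannot be told apart.

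Without LiCl, the interferon-stimulated genes stood higher in the knock-out than in the wild type. Of the 37 members tested, 35 were called higher (17.8% of all 12279 genes tested were) and 2 lower (20.4% of all genes), with an adjusted p under 0.05 from limma as the threshold for a call. The median member differed by 1.26 on the log2(FPKM + 1) scale, against -0.03 over all genes tested, and 28 members were called higher with a log2 fold change over 1, against 4.32% of all genes. In ratios of group means over the 39 members, the median was 2.79 and 12 were over 5, led by Oas3 (27.8), whose WT MEF level was close to 0. Among the 12, Oas2 and Oas3 are in the table, and Rsad2, Oas1g and Cmpk2 among the tested, only through untreated HSF1 KO MEF. A high ratio was bound to appear for them, and no share over all genes was taken. Ifi27 and Isg20 were lower. The calls of 3 members were lost when any of several libraries was left out. Ifitm3 (log2 0.26, adjusted p = 0.0349) lost its call without WT MEF replicate 1, 2 or 3 or HSF1 KO MEF replicate 1 or 2 (adjusted p = 0.0643 to 0.121). Trim25 (log2 0.28, adjusted p = 0.033) lost it without WT MEF replicate 1, 2 or 3 or HSF1 KO MEF replicate 2 or 3 (adjusted p = 0.056 to 0.116), and Oasl1 (log2 0.56, adjusted p = 0.0146) without WT MEF replicate 2 or HSF1 KO MEF replicate 1 or 2 (adjusted p = 0.057 to 0.06). Rsad2, Oas1g, Oasl1 and Cmpk2 passed the minimum only through the untreated HSF1 KO MEF libraries, so a difference there was bound to appear, and of the other 33 members tested 31 were higher and 2 lower. All 15 macrophage markers were also called higher in untreated HSF1 KO MEF, with a median log2 fold change of 3.43. Among them Ptprc, Aif1, Itgam, C1qa and C1qc passed the minimum only through those libraries, so their difference was bound to appear. The part of the markers in the higher level of the members was not tested.

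In HSF1 KO MEF, LiCl lowered every member that could be tested. All 37 were called lower and 0 higher (21.1% and 36.5% of all genes), with a median log2 fold change of -2.38 against 0.16 over all genes, and 35 were lower with a log2 fold change below -1 (7.83% of all genes). Rsad2, Oas1g, Oasl1 and Cmpk2 owe their place among the tested to their untreated HSF1 KO MEF level, so their fall there was fixed by the minimum, and of the other 33 members 33 were lower. The median member kept 7.69% of its untreated level, and 17 of 39 kept under 5%. Oas2 and Oas3, in the table only through untreated HSF1 KO MEF, are among these 17, as are Rsad2, Oas1g, Oasl1 and Cmpk2. Rsad2, Oas2, Oasl1, Cmpk2 and Zbp1 were listed at 0 in all 3 HSF1 KO MEF LiCl libraries. No member was called higher in any of the alternatives run, and Irf9, when only its highest transcript was used, was the single member to lose its call. All 15 macrophage markers were lower as well (median -3.59), a fall fixed by the minimum for Ptprc, Aif1, Itgam, C1qa and C1qc. Of the 10 fibroblast markers 8 were lower and 0 higher (median -1.69, summed level 3100 to 3281 FPKM untreated and 1591 to 1660 FPKM with LiCl). The part of either list was not tested. This comparison and the preceding one share the untreated HSF1 KO MEF libraries.

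In WT MEF, LiCl moved the same list less far. Of 37 members, 31 were called lower, 2 higher (Ifitm3 and Ifi35) and 4 were not called (Oas1g, Eif2ak2, Usp18 and Trim25), while 27.1% of all genes were lower and 38.1% higher. The median log2 fold change was -0.97 against 0.13 over all genes, and 17 members were lower with a log2 fold change below -1 (11.6% of all genes). The median member kept 31.3% of its untreated level, and Rsad2, Oas2 and Cmpk2 were listed at 0 in the 3 WT MEF LiCl libraries. Of the 15 macrophage markers 10 were lower and 2 higher (Cd68 and Cd14), with a median of -0.63. Of the 10 fibroblast markers 9 were lower and 0 higher, with a median of -2.75. Their summed level was 4556 to 4882 FPKM in untreated WT MEF and 1407 to 1464 FPKM with LiCl. The part of either list in the members' fall was not tested. Rescaling by medians of ratios moved the median of all genes from 0.13 to -0.02 in WT MEF and from 0.16 to -0.005 in HSF1 KO MEF, and turned the calls over all genes from 4680 higher and 3330 lower to 3798 and 3991 in WT MEF, and from 4480 and 2592 to 3232 and 3455 in HSF1 KO MEF. Under that rescaling the members' counts were 2 higher and 32 lower in WT MEF and 37 lower in HSF1 KO MEF.

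**Figure D2:**
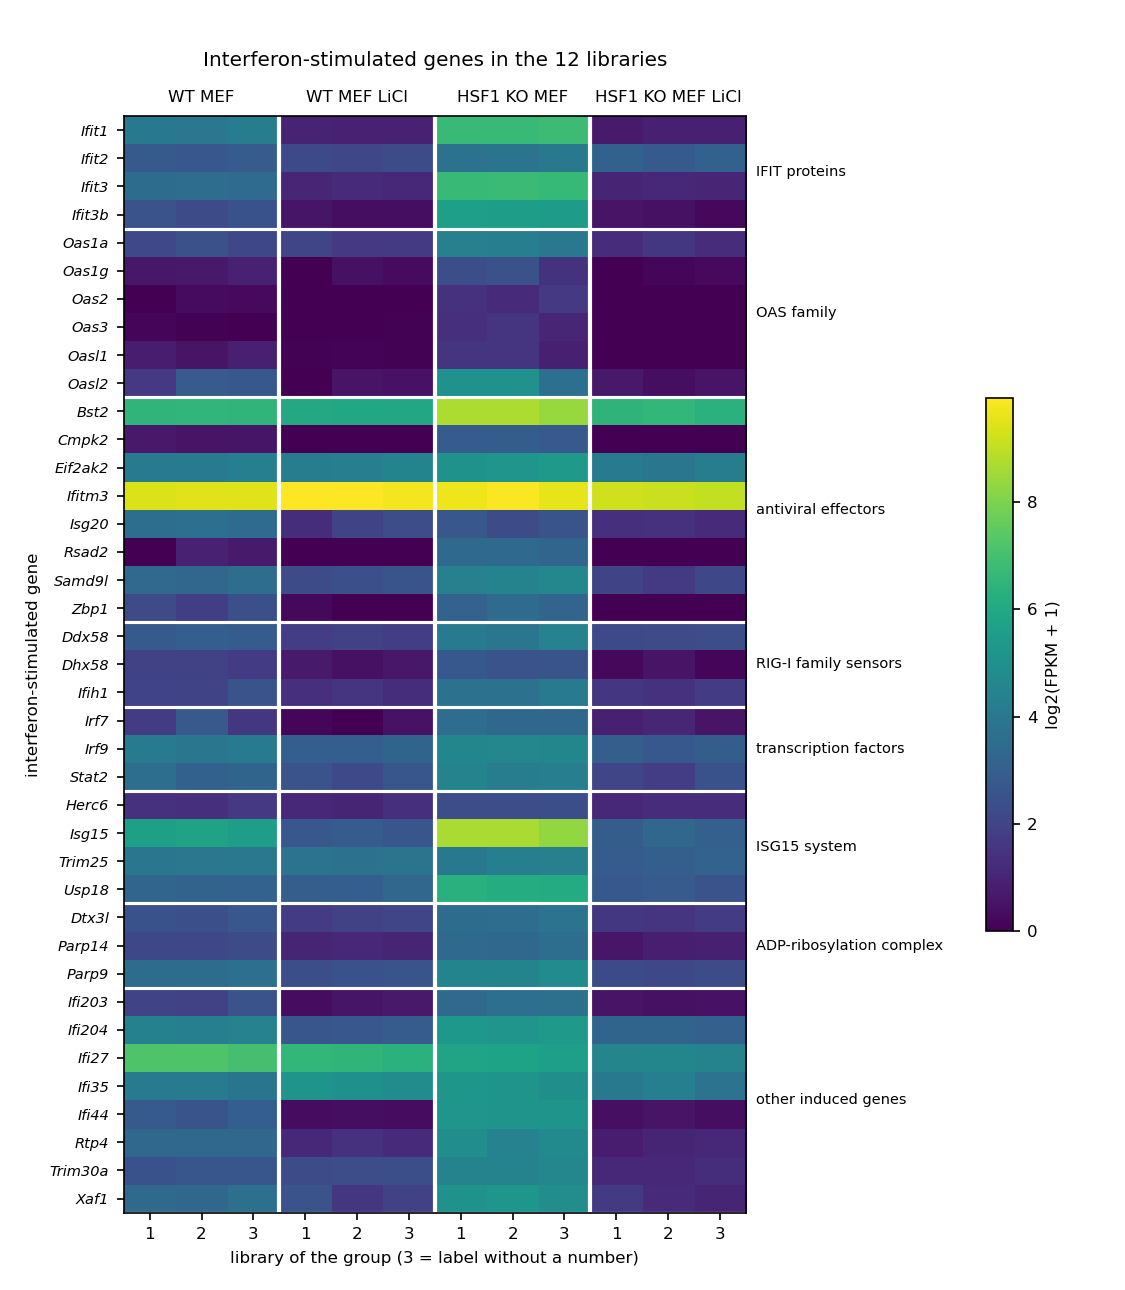
Level of the 39 interferon-stimulated genes of the table in the 12 libraries, as log2(FPKM + 1), grouped by role (rows) and by genotype and treatment (columns, 3 libraries each). Most rows are brightest in untreated HSF1 KO MEF and darkest with LiCl. Ifi27 and Isg20 are brightest in untreated WT MEF, and Ifitm3 is bright in every column.

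IFIT proteins bind viral RNA that lacks the complete cap of the host. Their 4 genes lie side by side on the plus strand of chromosome 19 (GRCm38), from Ifit2 (34550694 to 34576419) through Ifit3 and Ifit3b to Ifit1 (34640871 to 34650009), and all are protein coding. Ifit1 gave 15.3, 14.4 and 16.9 FPKM in untreated WT MEF and 103, 104 and 112 FPKM in untreated HSF1 KO MEF. Its LiCl libraries gave 0.996, 0.882 and 0.879 FPKM in WT MEF, against 0.665, 0.854 and 0.839 FPKM in HSF1 KO MEF. The untreated groups lay far apart, and with LiCl every library was under 1 FPKM, with the knock-out libraries just below. The level was 6.87-fold higher in untreated HSF1 KO MEF (log2 2.70, standard error 0.08, adjusted p = 1.6e-09), and with LiCl 5.92% of it was left in WT MEF, against 0.738% in HSF1 KO MEF. Ifit3 had the same shape, at 10.5 ± 0.267 FPKM in untreated WT MEF and 104 ± 4.06 in untreated HSF1 KO MEF (SD, n = 3), falling to 1.17 ± 0.0834 and 1.11 ± 0.0857. Its libraries were 10.5, 10.7 and 10.2 against 105, 108 and 99.8 FPKM without LiCl and 1.12, 1.27 and 1.13 against 1.05, 1.21 and 1.08 with LiCl, so the genotypes overlapped only with LiCl. The log2 fold change between the untreated genotypes was 3.20 on the log2(FPKM + 1) scale, and the ratio of means was 9.96. Ifit3b stood at 4.90, 3.95 and 4.72 FPKM in untreated WT MEF, 47.8, 45.5 and 44.7 in untreated HSF1 KO MEF, 0.486, 0.282 and 0.296 in WT MEF LiCl and 0.425, 0.362 and 0.164 in HSF1 KO MEF LiCl. Transcripts of Ifit3 and Ifit3b are 98.0% identical over 1697 aligned bases, so the split of reads between them is uncertain.

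Ifit2 had a narrower range than its neighbours. Untreated, WT MEF gave 6.10, 5.46 and 6.32 FPKM and HSF1 KO MEF gave 12.2, 13.1 and 15.03. With LiCl the values were 3.55, 3.39 and 4.02 for WT MEF and 7.41, 6.11 and 7.56 for HSF1 KO MEF. HSF1 KO MEF libraries were therefore above WT MEF libraries both without and with LiCl, with no overlap. The genotype difference was 1.05 without LiCl (adjusted p = 1.68e-05) and 0.78 with it (adjusted p = 0.000151), on the log2(FPKM + 1) scale. Its fall with LiCl did not pass the test of a difference between the genotypes (log2 -0.27, adjusted p = 0.214), whereas those of Ifit1, Ifit3 and Ifit3b did, at -2.81, -3.24 and -3.13. No match to the response element core was found in the 300 bases searched for Ifit2.

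The ISG15 system attaches a ubiquitin-like protein to other proteins. Isg15 is that modifier, Herc6 its ligase in mouse, Usp18 removes it and also restrains signalling at the receptor, and Trim25 is a ubiquitin ligase that acts on RIG-I. Isg15 (chromosome 4, 156199424 to 156200818) stood at 49.8, 51.5 and 46.7 FPKM in untreated WT MEF, 408, 416 and 320.0 in untreated HSF1 KO MEF, 5.57, 6.47 and 5.33 in WT MEF LiCl and 6.65, 8.74 and 7.22 in HSF1 KO MEF LiCl. All 3 untreated knock-out libraries lay above every other library, and the untreated genotypes differed 7.73-fold (log2 2.92, standard error 0.12, adjusted p = 1.35e-08). With LiCl 11.7% of its level was left in WT MEF, against 1.98% in HSF1 KO MEF. Usp18 (chromosome 6, 121245906 to 121270917) behaved otherwise. Its libraries gave 8.43, 7.88 and 7.82 FPKM without LiCl and 7.05, 6.95 and 8.74 FPKM with LiCl in WT MEF, which overlap (log2 -0.08, adjusted p = 0.513). In HSF1 KO MEF they gave 78.7, 70.1 and 68.5 FPKM without and 5.75, 6.15 and 4.81 with LiCl. The untreated knock-out libraries were thus 9.01-fold above WT MEF, and LiCl took them below the WT MEF level. The difference between the LiCl responses, -3.40 (standard error 0.15, adjusted p = 1.01e-07), was the largest in size among the 37 members. Trim25 gave 14.1, 14.3 and 14.7 FPKM in untreated WT MEF and 15.3, 18.4 and 19.3 FPKM in untreated HSF1 KO MEF. The libraries with LiCl gave 12.9, 12.01 and 13.1 FPKM in WT MEF, against 6.49, 7.03 and 7.64 FPKM in HSF1 KO MEF. Its fall in HSF1 KO MEF was called (log2 -1.21, adjusted p = 8.81e-07) and that in WT MEF was not (log2 -0.17, adjusted p = 0.113), except under median-of-ratios or quantile scaling (adjusted p = 0.00518 and 0.00482), and the responses differed (log2 -1.04, adjusted p = 0.000123). Herc6 ran from 1.59 to 2.12 FPKM in WT MEF to 4.06 to 4.28 in HSF1 KO MEF, and the call of its small fall in WT MEF (log2 -0.32, adjusted p = 0.0223) was lost without WT MEF replicate 3 or WT MEF LiCl replicate 1 or 2 (adjusted p = 0.073 to 0.0869).

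**Figure D3:**
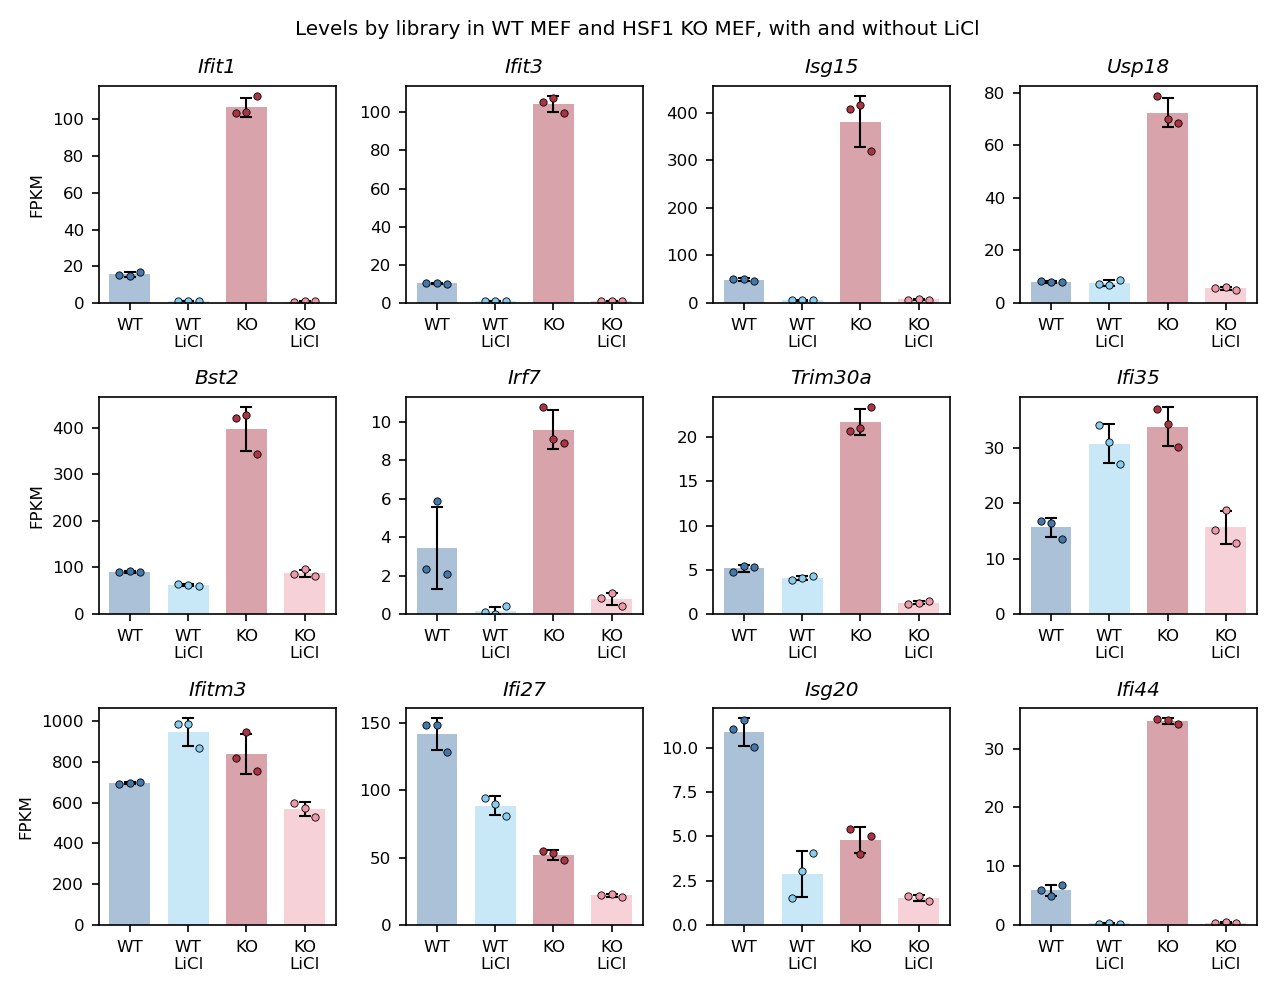
FPKM of 12 interferon-stimulated genes in the 4 groups, with a linear axis from 0 for each gene. Points are the 3 libraries, bars the group mean and error bars the SD. In Ifit1, Ifit3, Isg15 and Ifi44 only untreated HSF1 KO MEF stands high, Usp18 is flat in WT MEF, Ifi35 and Ifitm3 rise with LiCl in WT MEF and fall in HSF1 KO MEF, and Ifi27 and Isg20 are highest in untreated WT MEF.

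Active OAS proteins make a short RNA messenger that activates RNase L when they meet double-stranded RNA. All 6 genes lie on chromosome 5, in a cluster of Oas2, Oas3, Oas1g and Oas1a on the minus strand and a pair of Oasl2 and Oasl1 on the plus strand. The 4 tested were called higher in untreated HSF1 KO MEF (17.8% of all genes were). The same 4 were called lower with LiCl in HSF1 KO MEF (21.1% of all genes). Of these, Oas1g and Oasl1 passed the minimum only through untreated HSF1 KO MEF, so both directions were fixed for them. Oas1a stood at 3.61, 4.50 and 3.42 FPKM in untreated WT MEF, 19.2, 18.3 and 14.9 in untreated HSF1 KO MEF, 3.23, 2.12 and 2.26 in WT MEF LiCl and 1.39, 2.07 and 1.37 in HSF1 KO MEF LiCl, so LiCl took the knock-out libraries under the WT MEF LiCl libraries (log2 -0.44, adjusted p = 0.0463). That call was lost without WT MEF replicate 1 or 3, WT MEF LiCl replicate 1 or 3, HSF1 KO MEF replicate 1 or 2 or HSF1 KO MEF LiCl replicate 1 or 3 (adjusted p = 0.0531 to 0.167). The fall in WT MEF (log2 -0.46, adjusted p = 0.0247) lost its call without WT MEF replicate 2 or WT MEF LiCl replicate 2 or 3 (adjusted p = 0.0768 to 0.0947). Oasl2 reached 31.6, 31.9 and 11.4 FPKM in HSF1 KO MEF, with replicate 3 well below the other libraries, and 2.18, 6.17 and 5.73 FPKM in WT MEF, with replicate 1 lowest. Its response difference (log2 -1.96, adjusted p = 0.0211) lost its call without HSF1 KO MEF replicate 1 or 2 (adjusted p = 0.0504 to 0.0519) and with a pseudocount of 0.1 (log2 -1.62, adjusted p = 0.206). The response difference of Oasl1 (log2 -0.63, adjusted p = 0.0501) was called without WT MEF replicate 3 or HSF1 KO MEF replicate 3 (adjusted p = 0.00172 to 0.0476) and in all under 8 alternatives, among them a pseudocount of 0.1 (adjusted p = 0.0257), no minimum level, 2 other scalings and no variance trend. The fall of Oas1g in WT MEF (log2 -0.49, adjusted p = 0.0891) was called without HSF1 KO MEF replicate 3 (adjusted p = 0.0079), with a pseudocount of 0.1 (adjusted p = 0.0367) and with only the groups compared in the fit (adjusted p = 0.0224). Oas1g (4.21, 4.47 and 1.73 FPKM) and Oasl1 (1.82, 1.84 and 0.854 FPKM) were also lowest in replicate 3 of HSF1 KO MEF. Transcripts of Oas1a and Oas1g are 97.5% identical over 1860 aligned bases, so their split is uncertain. Oas2 gave 1.67, 1.36 and 2.13 FPKM in untreated HSF1 KO MEF and 0, 0.221 and 0.205 in untreated WT MEF, and Oas3 gave 1.53, 1.83 and 1.08 against 0.0951, 0.0425 and 0.0217, both too low overall to be tested.

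Antiviral effectors act on the virus or on the infected cell. Rsad2 (viperin) makes a chain-terminating nucleotide and Cmpk2 is a nucleotide kinase. Their genes are neighbours on chromosome 12, in opposite directions and 12.8 kb apart. Rsad2 stood at 0, 0.878 and 0.650 FPKM in WT MEF and 9.63, 9.60 and 8.59 in HSF1 KO MEF, and Cmpk2 at 0.595, 0.446 and 0.496 and 6.53, 6.54 and 5.83. Both genes were listed at 0 in all 6 LiCl libraries, so no fold is given and their log2 changes with LiCl depend on the pseudocount of 1. The fall of Rsad2 in WT MEF (log2 -0.54, adjusted p = 0.0234) lost its call without WT MEF replicate 2 or 3 or WT MEF LiCl replicate 1, 2 or 3 (adjusted p = 0.0524 to 0.0955). Zbp1, a sensor of Z-form nucleic acid, went from 3.85, 2.59 and 4.41 FPKM in WT MEF to 0.162, 0 and 0 with LiCl, and from 7.72, 10.1 and 8.55 in HSF1 KO MEF to 0 in all 3 libraries. Bst2 (tetherin), which holds budding virus at the cell surface, was far more abundant. Its libraries were 89.5, 93.4 and 89.4 FPKM in WT MEF, 63.5, 61.95 and 60.3 in WT MEF LiCl, 422, 426 and 344 in HSF1 KO MEF and 86.6, 95.9 and 80.98 in HSF1 KO MEF LiCl. The knock-out libraries were 4.38-fold higher without LiCl (log2 2.11, standard error 0.09, adjusted p = 1.38e-08) and were called higher with LiCl too (log2 0.49, adjusted p = 0.000881). With LiCl 68.2% of the level was left in WT MEF, against 22.1% in HSF1 KO MEF. Samd9l, a restriction factor for poxviruses, and Eif2ak2 (PKR), a kinase that halts translation, were each higher in untreated HSF1 KO MEF (1.05 and 1.07). Eif2ak2 stood at 16.6 ± 1.64 FPKM in WT MEF and 18.9 ± 2.31 with LiCl, a difference of 0.18 that was not called (adjusted p = 0.208), and at 36.1 ± 3.63 FPKM in untreated HSF1 KO MEF, falling to 15.9 ± 1.86 (SD, n = 3).

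Ifitm3 and Isg20 followed other patterns. Ifitm3, a membrane protein that blocks viral entry, was the most abundant member in every library. It stood at 693, 695 and 701 FPKM in WT MEF, 986, 986 and 870.3 in WT MEF LiCl, 819.5, 948 and 753 in HSF1 KO MEF and 598, 572 and 530.2 in HSF1 KO MEF LiCl. LiCl libraries lay above untreated ones in WT MEF (log2 0.44, adjusted p = 0.00107) and below them in HSF1 KO MEF (log2 -0.56, adjusted p = 0.000248), and the responses differed by -1.003 (adjusted p = 0.000127). Isg20, an exonuclease that degrades viral RNA, gave 11.04, 11.6 and 10.04 FPKM in WT MEF and 5.42, 3.99 and 5.01 in HSF1 KO MEF, with the knock-out libraries below (log2 -1.04, adjusted p = 0.00281). With LiCl it gave 1.497, 3.08 and 4.04 FPKM in WT MEF, against 1.62, 1.64 and 1.35 FPKM in HSF1 KO MEF, overlapping between the genotypes, and its LiCl responses did not pass the test of a difference (log2 0.49, adjusted p = 0.261). Its genotype difference with LiCl (log2 -0.55, adjusted p = 0.059) was called without WT MEF LiCl replicate 1 (adjusted p = 0.0011).

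The RIG-I family senses viral RNA in the cytosol and leads to interferon production. Ddx58 (RIG-I) stood at 6.04, 6.92 and 6.52 FPKM in untreated WT MEF, 16.8, 14.1 and 20.1 in untreated HSF1 KO MEF, 2.49, 2.83 and 2.58 in WT MEF LiCl and 3.65, 3.92 and 4.13 in HSF1 KO MEF LiCl. The knock-out libraries were above without LiCl (log2 1.25, adjusted p = 8.21e-06) and with it (log2 0.43, adjusted p = 0.0115). Ifih1 (MDA5) gave 2.98, 3.16 and 5.07 FPKM in untreated WT MEF, 12.6, 12.2 and 16.3 in untreated HSF1 KO MEF, 1.61, 1.82 and 1.45 in WT MEF LiCl and 1.98, 1.76 and 2.43 in HSF1 KO MEF LiCl. Its groups separated only without LiCl (log2 1.65, adjusted p = 1.86e-05, against log2 0.22, adjusted p = 0.341 with LiCl). Dhx58 (LGP2), which lacks a signalling domain and tunes the other sensors, gave 2.80, 2.94 and 2.36 FPKM in untreated WT MEF and 5.73, 4.84 and 5.01 FPKM in untreated HSF1 KO MEF. With LiCl it gave 0.648, 0.356 and 0.557 FPKM in WT MEF, against 0.159, 0.452 and 0.115 FPKM in HSF1 KO MEF. It was higher in untreated HSF1 KO MEF (log2 0.74, adjusted p = 0.000731) and fell further there, with a response difference of -1.04 (adjusted p = 0.00112). With LiCl its genotype difference (log2 -0.30, adjusted p = 0.078) was called without HSF1 KO MEF LiCl replicate 2 (adjusted p = 0.0192).

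The transcription factors of the response are themselves induced by it. Irf7 drives a second wave of interferon genes, and Stat2 and Irf9 act together on the promoters of the members. Irf7 stood at 2.36, 5.90 and 2.06 FPKM in WT MEF, with replicate 2 above the others, and at 10.7, 9.12 and 8.89 in HSF1 KO MEF. With LiCl it stood at 0.0965, 0 and 0.397 in WT MEF and 0.857, 1.08 and 0.431 in HSF1 KO MEF. The genotypes differed without LiCl (log2 1.35, adjusted p = 0.0028), and the response difference was not called with all libraries (log2 -0.73, adjusted p = 0.191) and was called without WT MEF replicate 2 (adjusted p = 0.00887). The genotype difference with LiCl (log2 0.62, adjusted p = 0.099) was also called without WT MEF replicate 2 (adjusted p = 0.0138). Irf9 gave 15.6, 14.01 and 16.7 FPKM in untreated WT MEF, 22.5, 23.03 and 22.9 in untreated HSF1 KO MEF, 6.83, 6.90 and 8.34 in WT MEF LiCl and 7.13, 5.76 and 6.66 in HSF1 KO MEF LiCl, one of the narrower rises (log2 0.54, adjusted p = 0.00126). It is the sum of 3 transcripts, and with the highest of them alone the genotype call was lost (adjusted p = 0.518). Stat2 gave 11, 7.45 and 8.10 FPKM in untreated WT MEF and 21.01, 16.9 and 18.2 FPKM in untreated HSF1 KO MEF. Its LiCl libraries gave 4.88, 3.62 and 5.32 FPKM in WT MEF, against 3.26, 2.52 and 4.75 FPKM in HSF1 KO MEF. It was higher in untreated HSF1 KO MEF (log2 1.01, adjusted p = 0.00203), and its difference with LiCl (log2 -0.33, adjusted p = 0.208) was called only without HSF1 KO MEF LiCl replicate 3 (adjusted p = 0.0492).

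Parp9, Parp14 and Dtx3l encode ADP-ribosyltransferases and a ubiquitin ligase partner that acts with Parp9. They lie together on chromosome 16, where the 5′ ends of Dtx3l and Parp9 overlap by 682 bases on opposite strands. Whether the counting used strand is not stated in the sources used here, so reads of the overlap are uncertain. Parp9 stood at 10.5, 10.4 and 11.4 FPKM in untreated WT MEF, 21.4, 21.5 and 27.8 in untreated HSF1 KO MEF, 4.20, 4.71 and 4.98 in WT MEF LiCl and 3.75, 3.47 and 3.85 in HSF1 KO MEF LiCl. Replicate 3 was above the other libraries in untreated HSF1 KO MEF. Parp14, the larger transferase, gave 3.41, 3.41 and 3.87 FPKM in untreated WT MEF and 9.43, 9.17 and 11.2 FPKM in untreated HSF1 KO MEF. The libraries with LiCl gave 1.04, 1.16 and 1.06 FPKM in WT MEF, against 0.530, 0.799 and 0.820 FPKM in HSF1 KO MEF. Dtx3l, the ligase, gave 4.69, 4.42 and 5.56 FPKM in untreated WT MEF and 10.5, 10.8 and 12.8 FPKM in untreated HSF1 KO MEF. With LiCl it gave 2.44, 2.94 and 3.20 FPKM in WT MEF, against 2.03, 1.80 and 2.31 FPKM in HSF1 KO MEF. The 3 genes moved by close amounts, 1.05, 1.26 and 1.07 between the untreated genotypes, and their response differences were -1.32, -1.54 and -1.41, each called. With LiCl, the lower level of Parp14 (log2 -0.29, adjusted p = 0.0423) lost its call without WT MEF replicate 1 or 2, WT MEF LiCl replicate 1, 2 or 3, HSF1 KO MEF replicate 1 or HSF1 KO MEF LiCl replicate 1 or 2 (adjusted p = 0.0503 to 0.156), and that of Dtx3l (log2 -0.34, adjusted p = 0.0386) without WT MEF replicate 1, WT MEF LiCl replicate 2 or 3 or HSF1 KO MEF LiCl replicate 1 or 2 (adjusted p = 0.0514 to 0.127). Parp9 (log2 -0.26, adjusted p = 0.0677) was called there without HSF1 KO MEF replicate 3 (adjusted p = 0.0226).

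Among the other induced genes, Ifi44 had the widest swing. It stood at 6.02, 4.95 and 6.82 FPKM in untreated WT MEF, 34.97, 34.9 and 34.1 in untreated HSF1 KO MEF, 0.253, 0.294 and 0.248 in WT MEF LiCl and 0.314, 0.450 and 0.300 in HSF1 KO MEF LiCl (log2 2.37, adjusted p = 1.91e-08 between the untreated genotypes). Rtp4, which in mouse restrains the interferon response, gave 9.04, 8.99 and 8.77 FPKM in untreated WT MEF and 28.3, 20.5 and 26.1 FPKM in untreated HSF1 KO MEF. Its LiCl libraries gave 1.18, 1.64 and 1.34 FPKM in WT MEF, against 0.756, 1.02 and 1.18 FPKM in HSF1 KO MEF. Its untreated groups did not overlap (log2 1.38, adjusted p = 8.97e-06), but Rtp4 is the sum of 5 transcripts, and with the highest alone the difference was 0.45 (adjusted p = 0.248) and the response difference was not called either (log2 -0.69, adjusted p = 0.228). Trim30a, a TRIM protein that dampens inflammatory signalling, gave 4.75, 5.41 and 5.29 FPKM in untreated WT MEF and 20.7, 21.1 and 23.4 FPKM in untreated HSF1 KO MEF. The libraries with LiCl gave 3.87, 4.08 and 4.31 FPKM in WT MEF, against 1.13, 1.21 and 1.46 FPKM in HSF1 KO MEF. LiCl left 79.3% of its level in WT MEF, a fall (log2 -0.27, adjusted p = 0.0183) whose call was lost without WT MEF replicate 2 or 3 or WT MEF LiCl replicate 1 (adjusted p = 0.0511 to 0.0638). In HSF1 KO MEF 5.84% was left, and the response difference was -3.05 (adjusted p = 8.12e-08). With LiCl the knock-out libraries of Trim30a were below all WT MEF libraries (log2 -1.17, adjusted p = 1.75e-06). Ifi204, a DNA sensor, gave 19.6, 18.6 and 20.1 FPKM in untreated WT MEF and 38.2, 35.6 and 40.8 FPKM in untreated HSF1 KO MEF. With LiCl it gave 5.27, 5.58 and 6.48 FPKM in WT MEF, against 8.16, 8.25 and 7.37 FPKM in HSF1 KO MEF. It was higher in HSF1 KO MEF with LiCl as well (log2 0.40, adjusted p = 0.00274). Xaf1, a pro-apoptotic protein, and Ifi203, of the same family as Ifi204, were higher in untreated HSF1 KO MEF (1.60 and 1.37) and lower with LiCl in both genotypes. With the highest of its transcripts alone, the untreated difference of Xaf1 lost its call (log2 1.37, adjusted p = 0.0786). Ifi203 and Ifi204 transcripts are 77.6% identical over 1845 aligned bases.

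Ifi27 was lower in untreated HSF1 KO MEF and Ifi35 rose with LiCl in WT MEF, both against most of the list. Ifi27, a mitochondrial membrane protein, gave 149, 149 and 128 FPKM in WT MEF and 54.8, 53.4 and 47.99 in HSF1 KO MEF, so that the knock-out libraries lay at 0.367 of the WT MEF mean (log2 -1.43, standard error 0.08, adjusted p = 1.71e-07). With LiCl it fell to 94.6, 90.2 and 80.7 FPKM in WT MEF, and to 22.2, 22.9 and 21.02 FPKM in HSF1 KO MEF, and it stayed lower in HSF1 KO MEF (log2 -1.96, adjusted p = 2.66e-08). Ifi35, a leucine zipper protein, gave 16.8, 16.5 and 13.6 FPKM in WT MEF without and 34.1, 30.9 and 27.1 with LiCl, a rise (log2 0.93, adjusted p = 0.000145). In HSF1 KO MEF it gave 36.99, 34.3 and 30.1 FPKM without and 15.2, 18.8 and 12.9 with LiCl, a fall (log2 -1.08, adjusted p = 6.72e-05). The 2 genotypes thus exchanged places, and the response difference was -2.01 (standard error 0.20, adjusted p = 2.54e-05).

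With LiCl, the median genotype difference of the members was small, and calls went in both directions. The share of members called was close to the share of all genes called. Of 37 members, 5 were called higher in HSF1 KO MEF LiCl than in WT MEF LiCl (Ifit2, Bst2, Ddx58, Isg15 and Ifi204), 11 lower and 21 were not called, while 19.6% of all genes were higher and 23.0% lower. The median log2 difference was -0.12 against -0.03 over all genes, and the median ratio of means over the 34 members above 0 in both groups was 0.78. The lower members were Oas1a, Ifitm3, Samd9l, Usp18, Trim25, Parp14, Dtx3l, Ifi27, Ifi35, Xaf1 and Trim30a. These counts were the least stable of the comparisons. Without WT MEF LiCl replicate 3 the lower members numbered 7, and with the 8 numbered libraries alone 3 were higher and 6 lower. The call of Isg15 (log2 0.33, adjusted p = 0.0473) was lost without WT MEF replicate 1, 2 or 3, WT MEF LiCl replicate 1 or 3, HSF1 KO MEF replicate 1 or HSF1 KO MEF LiCl replicate 2 or 3 (adjusted p = 0.055 to 0.163), and that of Xaf1 (log2 -0.72, adjusted p = 0.0305) without WT MEF LiCl replicate 1 or 3 or HSF1 KO MEF LiCl replicate 2 or 3 (adjusted p = 0.0544 to 0.104). Of the 15 macrophage markers, 9 were higher in HSF1 KO MEF LiCl and 2 lower (Cd68 and Cd14).

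The difference between the LiCl responses was coded as the response of HSF1 KO MEF minus that of WT MEF. It was negative and called for 33 of 37 members, and positive and called for 0 (15.3% and 16.1% of all genes), with a median of -1.43 against 0.01 over all genes. Of these, Rsad2, Oas1g and Cmpk2 passed the minimum only through untreated HSF1 KO MEF, whose high level makes the difference negative, and over the 33 members that passed without it the count was 30. No library left out took the count over 37 members outside 32 to 34. Ifit2, Oasl1, Isg20 and Irf7 were not called, and Isg20 alone had a positive estimate (0.49). By construction it equals the genotype difference with LiCl minus that without LiCl, so the higher start in untreated HSF1 KO MEF enters it, and it measures the size of a fall and not where the fall ends. Among members with a promoter entry, the median untreated genotype difference was 1.88 in the 15 tested with a match to the response element core and 1.06 in the 14 without, and the median LiCl response in HSF1 KO MEF was -2.83 and -1.84, given as a description. In WT MEF the median LiCl response was -0.81 and -0.82. The median genotype difference with LiCl was -0.05 and -0.11, and the median response difference -1.62 and -1.22. Rsad2 and Oas1g, with a match, and Oasl1 and Cmpk2, without, passed the minimum only through untreated HSF1 KO MEF. All 15 macrophage markers also had a negative called difference (median -2.75), which the minimum fixed for Ptprc, Aif1, Itgam, C1qa and C1qc. The part of the markers in the difference of the members was not tested.

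**Figure D4:**
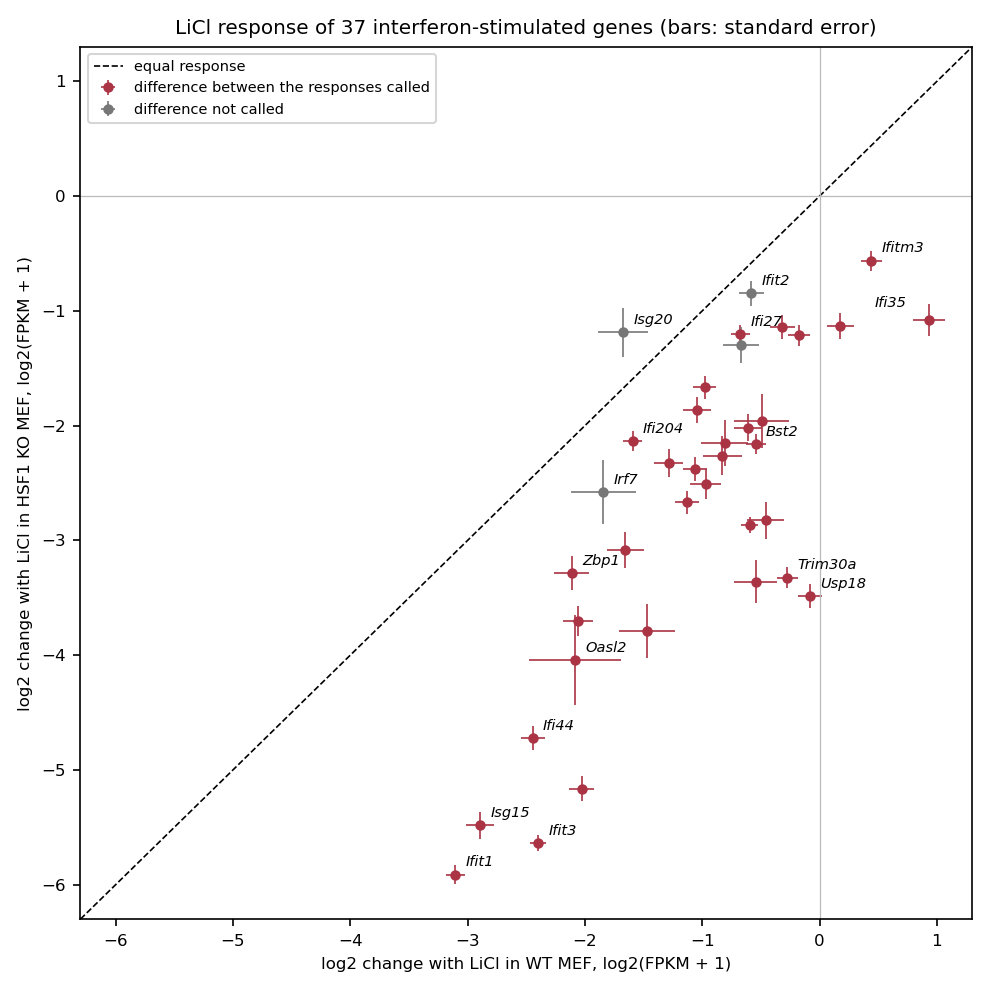
Log2 change with LiCl of the 37 members tested, in WT MEF (horizontal axis) and in HSF1 KO MEF (vertical axis), with standard errors from limma. Points under the dashed line fell further in HSF1 KO MEF on the log2(FPKM + 1) scale, whereas by ratio of means Irf7 fell less there. Red points passed the test of the difference between the responses (33 members) and grey points did not (Ifit2, Oasl1, Isg20 and Irf7). Usp18 lies near 0 in WT MEF and at -3.49 in HSF1 KO MEF, and Ifitm3 and Ifi35 lie to the right of 0.

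Genes upstream of the members were read from lists of the pathway. Of 21 interferon ligand genes only Ifnz was in the table, at 0.198 to 0.437 FPKM in WT MEF, 0.499 to 0.626 in WT MEF LiCl, 0.214 to 0.329 in HSF1 KO MEF, and in the latter with LiCl 0.289 to 0.359, too low to be tested. Ifnb1 was not among its transcripts, and transcripts with a mean under 0.5 FPKM in every group had been left out of the table, so a low ligand level cannot be seen here. The counts that follow compare untreated HSF1 KO MEF with untreated WT MEF, where 17.8% of all genes were higher and 20.4% lower. Of 9 receptor and Janus kinase genes, 1 was higher and 5 were lower. Ifnar1 went from 21.8, 22.1 and 23.3 to 16.7, 16.6 and 19.6 FPKM (log2 -0.33, adjusted p = 0.0157) and Ifnar2 from 55.2, 48.4 and 40.7 to 35.6, 32.1 and 23.7 FPKM (log2 -0.65, adjusted p = 0.00934), so both receptor chains were lower where the members were higher. Among further STAT and IRF genes, Irf8 (log2 1.53, adjusted p = 2.64e-07) and Irf5 (log2 1.22, adjusted p = 0.000277) were higher and Stat3 (log2 -0.54, adjusted p = 0.00197) was lower. Irf8 and the phosphatase gene Ptpn6 are both known from blood cells. Both passed the minimum only through untreated HSF1 KO MEF, so their higher calls were bound to appear. Irf8 averaged 0.127 FPKM in WT MEF, 2.26 in HSF1 KO MEF, then 0.229 in the latter with LiCl. Ptpn6 averaged 0.338, 7.76 and 0.750 FPKM in that order. Of 10 genes that restrain the pathway 1 was higher (Ptpn6) and 5 were lower, among them Socs3 (log2 -1.13, adjusted p = 4.75e-06). Of 14 nucleic acid sensing genes tested 1 was higher and 2 were lower, shares under those of all genes, and of 10 clearance and editing genes 4 were higher, including Samhd1 (log2 0.74, adjusted p = 8.82e-05) and Adar (log2 0.42, adjusted p = 0.00112).

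The members' mean level by library followed the order HSF1 KO MEF, WT MEF, WT MEF LiCl, HSF1 KO MEF LiCl. As a mean z score of log2(FPKM + 1) over the 37 members, the libraries gave 1.34, 1.35 and 1.29 in HSF1 KO MEF, 0.133, 0.136 and 0.216 in WT MEF, -0.636, -0.628 and -0.558 in WT MEF LiCl and -0.883, -0.879 and -0.872 in HSF1 KO MEF LiCl. The summed macrophage markers had the same highest group, while their lowest was WT MEF LiCl and not HSF1 KO MEF LiCl.

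**Figure D5:**
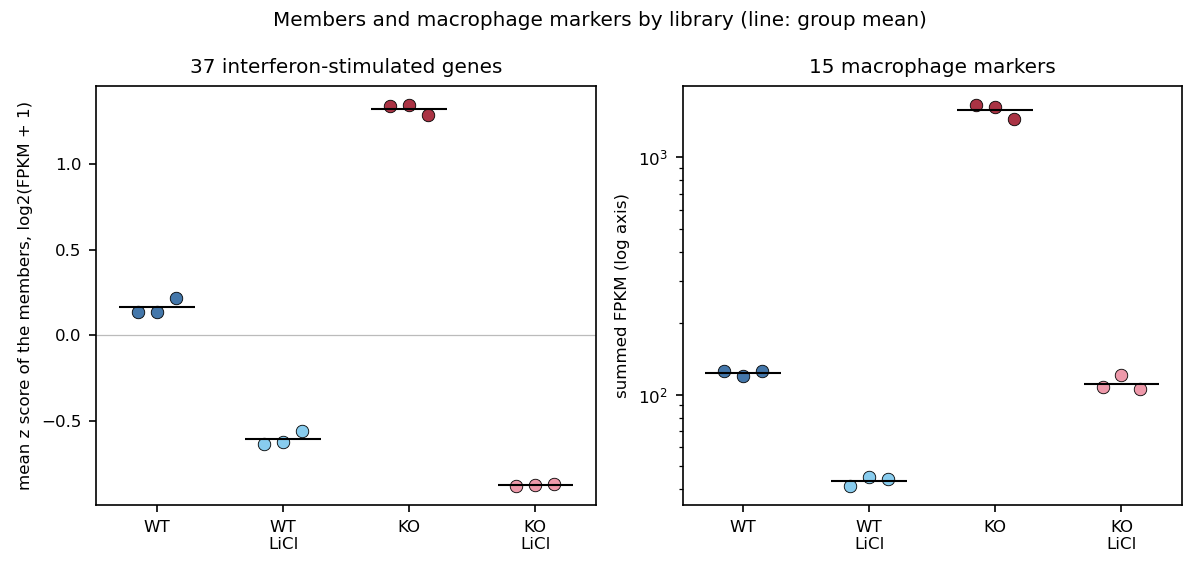
Mean z score of the 37 members (left) and summed FPKM of 15 macrophage markers (right, log axis) in each library, with the group mean as a line. Untreated HSF1 KO MEF is highest in both panels. With LiCl the knock-out libraries lie below WT MEF LiCl for the members and above WT MEF LiCl for the summed markers, an order of the sums that rests on Lyz2.

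Over the 12 libraries, 33 of the 37 members correlated with that mean at 0.772 (Ifit2) or more (Pearson r, a description over libraries of 4 groups), and Ifi27, Ifitm3, Ifi35 and Isg20 at 0.246, 0.343, 0.470 and 0.546. Each member is itself part of that mean, so a high value is partly built in. Outside the list, the genes most like the mean were Mndal (0.995), Parp12, Mmp12, Cxcr6, Stmn2, Gm4951, Apol9b, Trim30d, Gbp7 and Icos (0.987). Mean levels of Mndal were 3.35 FPKM (WT MEF), 11.6 (HSF1 KO MEF), 1.17 (WT MEF LiCl) and 0.867 (HSF1 KO MEF LiCl), and Mmp12 gave 4.77, 44.97, 0.880 and 0.487 in that order.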

How the data were processed

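The 12 libraries (poly(A) selection, a stranded kit, HiSeq sequencing) came from WT MEF or HSF1 KO MEF cells with or without LiCl. Per the submitters' processing notes, the authors used cutadapt, HISAT2 2.0.5 and StringTie on GRCm38. Their options and annotation release: not given in the sources used here. Each deposited value belongs to 1 transcript in 1 library and was taken as FPKM, as the authors made it. No source names the unit, but the values are not whole and their sums differ between libraries. All 27185 transcripts have a mean of at least 0.5 in some group, so low transcripts had been left out.

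Transcripts were matched by ID, without version, to GENCODE vM21 and summed per gene, and 70 unmatched ones (at most 0.136% of a library) were left out. A gene was tested if its values over the 12 libraries averaged 0.5 FPKM or more. The test was limma 3.58.1 (R 4.3.3) with moderated variances that follow a trend, on log2(FPKM + 1), with the 4 group means in 1 fit. Adjustment was by Benjamini-Hochberg over 12279 genes. Fold changes on this scale understate the change of low genes. Overlapping genes and near-identical copies are named beside their values. The fit was tested on simulated data. Promoters came from RefSeq (GRCm38.p6) and transcript identity from a global alignment (Biopython 1.88). The members and lists were chosen with earlier results of these data known. Per-library values are given for members among the 8 smallest adjusted p in any comparison, those called against most of the list and those of role groups of 3 or fewer, as well as for members singled out after their values were seen (the OAS family and Rsad2). Pathway and marker genes named are up to 4 per list by adjusted p, Hsf1, Ifnar1 and Ifnar2, and Aif1 for its values at 0. Also named are Itgam, C1qa, C1qc, Lyz2, Cd68 and Cd14, for limits on the macrophage marker results. One gene of the pathway lists is not reported here. Alternatives were another pseudocount, filter and scaling, a replicate block, only the groups compared, no variance trend, 1 transcript per gene, and each library left out. Precision was taken from the spread of 3 libraries, since depth is unknown.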

Additional observations from a re-analysis of the deposited data

Results flagged for a closer look

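The LiCl response differed between HSF1 KO MEF and WT MEF for 33 of the 37 members tested, by limma's test of the difference itself (adjusted p under 0.05). Values are the log2 change in HSF1 KO MEF minus that in WT MEF, and a negative value is a larger fall, or a fall against a rise, in HSF1 KO MEF. Rsad2, Oas1g and Cmpk2 passed the minimum level only through untreated HSF1 KO MEF, and over the 33 members that passed without it the count was 30. Among the IFIT genes the differences were Ifit1 -2.81, Ifit3 -3.24 and Ifit3b -3.13. In the OAS family they were Oas1a -2.37, Oas1g -1.46 and Oasl2 -1.96. For the antiviral effectors they were Rsad2 -2.81, Bst2 -1.62, Ifitm3 -1.003, Cmpk2 -2.27, Samd9l -1.54, Eif2ak2 -1.31 and Zbp1 -1.17. The RNA sensors gave Ddx58 -0.82, Ifih1 -1.43 and Dhx58 -1.04, and the transcription factors Irf9 -0.69 and Stat2 -1.34. In the ISG15 system they were Isg15 -2.59, Usp18 -3.40, Herc6 -0.83 and Trim25 -1.04, and in the ADP-ribosylation complex Parp9 -1.32, Parp14 -1.54 and Dtx3l -1.41. The remaining induced genes gave Ifi27 -0.53, Ifi35 -2.01, Ifi44 -2.28, Ifi203 -1.43, Ifi204 -0.54, Xaf1 -2.32, Rtp4 -1.64 and Trim30a -3.05. With the highest transcript alone, the differences of Ifi27, Xaf1, Rtp4 and Irf9 were not called, nor was that of Oasl2 with a pseudocount of 0.1. Ifitm3 and Ifi35 were the members called higher with LiCl in WT MEF and lower in HSF1 KO MEF.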

How the results depend on the processing

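No member changed direction with a call under any of the alternatives, and 3895 of 4028 member results kept their side of the threshold, while 105 lost a call and 28 gained one. The lost calls fell mostly on the genotype comparison with LiCl (55) and least on LiCl in HSF1 KO MEF (1, Irf9). Leaving out 1 library gave 32 to 35 members higher and 2 lower in untreated HSF1 KO MEF, 37 lower and 0 higher with LiCl in HSF1 KO MEF, 28 to 32 lower and 2 higher with LiCl in WT MEF, 4 to 5 higher and 7 to 12 lower in HSF1 KO MEF LiCl against WT MEF LiCl, and 32 to 34 negative and 0 positive response differences. With only the groups compared in the fit, the members lower in HSF1 KO MEF LiCl numbered 6 in place of 11. With the 8 numbered libraries alone, an alternative chosen after seeing the data, they numbered 6, and the higher ones 3 in place of 5. The cause was not tested. In untreated HSF1 KO MEF, Ifitm3 fell to a log2 difference of 0.05 under quantile normalization (adjusted p = 0.409). Xaf1, Rtp4 and Irf9 lost calls when 1 transcript stood for the gene. Under that alternative Ifi27 lost its response difference (log2 -0.33, adjusted p = 0.109, limma) and Irf7 its fall with LiCl in WT MEF (adjusted p = 0.0547). Isg15, Oas1a, Parp14 and Dtx3l lost their genotype calls with LiCl there too. Each has 1 transcript in the table, so their log2 differences were unchanged, and only the adjusted p moved, through the other genes in the fit. The longer promoter motif was found in 9 members in place of 16, since it fixes the letters CT as well.

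The labels number libraries 1 and 2 in each group. The study says that RNA-sequencing was performed 3 times, without naming what was repeated. Deviations from group means correlated at 0.004 to 0.087 between libraries of the same number and at 0.125 to 0.195 between unnumbered libraries, so the numbers were not taken to pair the samples. With a replicate block the counts were 35 higher and 2 lower in untreated HSF1 KO MEF, 37 lower with LiCl in HSF1 KO MEF, 3 higher and 31 lower with LiCl in WT MEF (Eif2ak2 added, adjusted p = 0.0297), 5 higher and 13 lower between the LiCl groups (Eif2ak2 and Parp9 added, adjusted p = 0.0127 and 0.0261), and 33 negative response differences. Over all genes, calls rose with the block in every comparison, for example from 4684 to 5200 between the untreated genotypes. Read depth is unknown, so counting error of low values such as Oas3 and Rsad2 could not be given.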
